A study of Mus musculus with 17 samples.

Results

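Germinal center (GC) B cells collected 72 h after injection of anti-DEC-OVA were compared, gene by gene, with GC B cells of untreated mice collected at the same time. Cells belonged to this comparison when they held at least 200 detected genes and under 10% mitochondrial UMIs and carried the pair of hashtag antibodies of a mouse killed on day 10 of the response. The rule gave 7 treated mice with 3475 cells and 8 untreated mice with 4947 cells, which is 15 of the 39 mice and 8422 of the 23698 cells of the time course. Unique transcript counts (UMIs) were summed per mouse, so that the mouse, and not the cell, was the replicate.

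All mice were CD45.1 hosts primed with ovalbumin (OVA) in alum, and all received B1-8hi B cells, whose knock-in antigen receptor recognizes the hapten NP. A minor part of the transferred cells carried the receptor DEC-205, the product of Ly75, together with a doxycycline-sensitive H2B-mCherry reporter, and the majority was Ly75-/-. Each mouse was immunized in the footpad with NP-OVA, and on day 7 the treated mice were given OVA coupled to an antibody against DEC-205, whereas untreated mice were not. Live GC B cells were sorted from lymph nodes of both kinds of mice at 0, 48 and 72 h, which are days 7, 9 and 10, with a gate for cells that carry B220 and Fas and are low in CD38, and were sequenced by 10x 5′ chemistry in 2 hashtagged pools. The study describes the cells analyzed at these times, in treated and control mice alike, as DEC-205+. The larger pool held 4 treated and 5 untreated mice of the 72 h groups, and the smaller pool held 3 of each.

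GC B cells alternate between a dark zone, where they divide and hypermutate their antibody genes, and a light zone, where they take up antigen from follicular dendritic cells and present it to T follicular helper (TFH) cells. Help from TFH cells sets how many times a B cell divides once it is back in the dark zone. Anti-DEC-OVA delivers OVA peptide to the MHC class II molecules of every DEC-205+ B cell regardless of what its antigen receptor binds, and thereby drives a synchronous burst of dark-zone division termed inertial cycling.

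Each 72 h mouse contributed 292 to 755 cells if treated and 366 to 1045 cells if untreated, with 2021775 to 6322592 and 3323015 to 7674775 UMIs, respectively. The median cell of a treated mouse had more UMIs (7260 against 6396 as the mean over mice; adjusted p = 0.0497, two-sided exact permutation test within pools) and a smaller share of cells with the heavy and light chain pairing of NP-binding B1-8hi cells (53.6% against 59.0%; exact permutation adjusted p = 0.0497). Mitochondrial shares were 3.59% and 3.31% (exact permutation adjusted p = 0.225). Among kept cells, 43 barcodes occurred in both pools, which are separate libraries. The summed level of 7 GC B cell markers was 1798 to 2010 CPM (UMIs of a gene scaled to a common library size) in treated and 1668 to 1838 CPM in untreated mice, whereas 10 T cell markers summed to 64.6 to 97.1 and 81.4 to 103 CPM, of which the kinase Lck alone gave 78.7 and 84.2 CPM over all cells of the groups. Neutrophil transcripts were at or near 0 in most mice, with a highest sum of 35.5 CPM in 1 treated mouse. The study describes these mice as littermates from independent experiments, and the p-values measure the spread between these mice.

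By 72 h no difference in the shares of cycling cells was detected between treated and untreated mice. Cells called G0-G1 from their transcripts made up 38.2% to 57.0% of a treated mouse (median 49.6%) and 39.3% to 56.1% of an untreated mouse (median 49.6%). The group means were 47.9% ± 6.85 (SD, n = 7) and 48.9% ± 6.11 (SD, n = 8), a difference of −1.05 percentage points (adjusted p = 0.729, two-sided exact permutation test within pools, in which 2520 relabellings allow no p below 0.000397). Shares of cells in S phase (24.5% and 25.2%) and in G2-M (27.6% and 25.9%) also differed by less than their spread (exact permutation adjusted p = 0.729 for each). Treated and untreated mice overlapped over most of their range in all 3 phases. At 48 h the G0-G1 share of treated mice had been 20.8% against 51.9%, a difference of −31.1 points with no overlap between mice (exact permutation adjusted p = 0.000476, the smallest that the 2100 relabellings at 48 h can give).

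**Figure D1:**
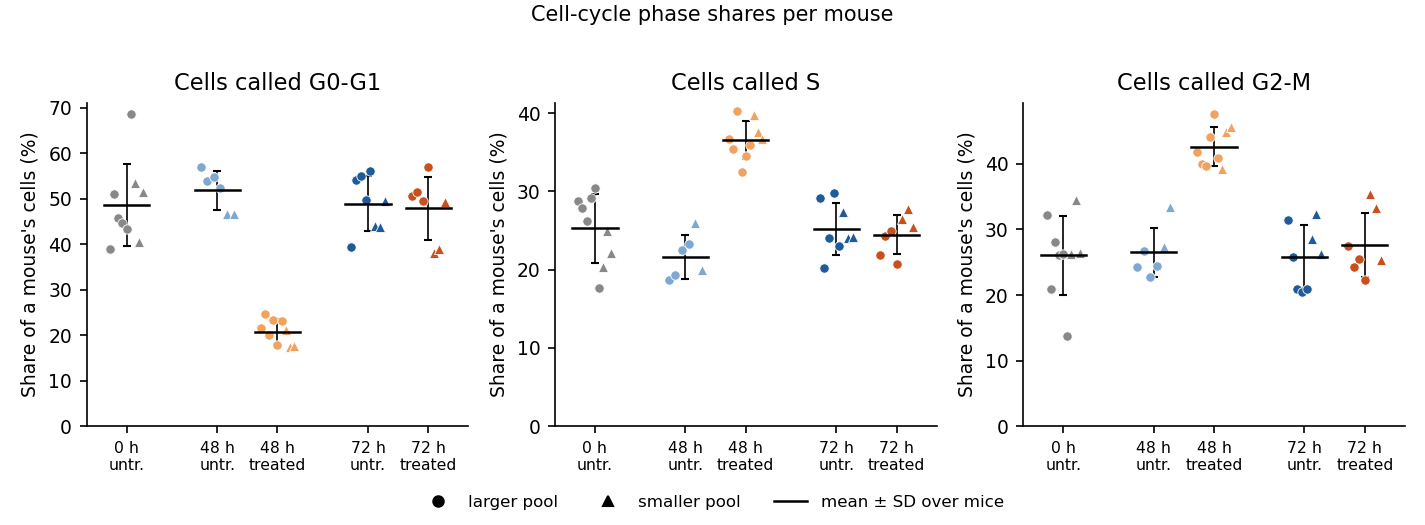
Share of each mouse's cells called G0-G1, S or G2-M (y axis, %) for untreated mice at 0, 48 and 72 h and treated mice at 48 and 72 h (x axis); circles are mice of the larger pool, triangles mice of the smaller pool, lines and bars the mean ± SD over mice. Treated mice stand apart at 48 h, with a G0-G1 mean of 20.8%, and lie among the untreated mice at 72 h, with 47.9% against 48.9%.

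Genes of S phase, mitosis and histones were rarely called in the cells as a whole. None of the 51 genes of G2 and mitosis and none of the 44 replication-dependent histone genes tested was called at 72 h, beside 8.51% of all genes. At 48 h, 51 and 40 of them, respectively, had risen, beside 24.6% of all genes. Of 40 genes of S phase and DNA replication, 39 had risen at 48 h and 1, Tyms, which makes thymidylate for DNA synthesis, fell at 72 h by 0.27 on the log2 scale (edgeR adjusted p = 0.037); that call was lost on leaving out any 1 of 8 mice. Of 26 tested G1 cyclins, CDK inhibitors and pocket proteins with their E2F partners, 18 had risen at 48 h (beside 24.6% of all genes), and at 72 h 0 rose and 3 fell (beside 3.65%), namely Ccnd3, Cdkn1b and the repressor E2f6 (−0.31, a call lost on leaving out any 1 of 5 mice). Mki67, the proliferation antigen, averaged 1514 ± 362 CPM in treated and 1559 ± 276 CPM in untreated mice, with a log2 fold change of −0.07 at 72 h after 0.48 at 48 h. Among cells called G0-G1 alone, however, Mki67 was higher in treated mice by 0.30 (edgeR adjusted p = 0.0012), and 11 of 44 tested genes of G2 and mitosis, 5 of 39 of S phase and 16 of 36 of the proteasome and chaperonin rose, beside 4.54% of all genes tested in those cells. The G0-G1 call itself rests on low scores over 43 S and 54 G2-M genes. Rises of S and mitotic genes in cells chosen that way are therefore no independent measure of cycling. In all cells, 1 of 53 genes of the Myc network and ribosome biogenesis was called at 72 h, where 28 had risen and 3 fallen at 48 h, beside 24.6% and 22.3% of all genes. None of the 36 proteasome and chaperonin genes was called at 72 h, and all 36 had risen at 48 h. Myc itself, the growth regulator induced by TFH help, was at 23.2 to 43.6 CPM in treated and 29.1 to 58.55 CPM in untreated mice (log2 fold change −0.49 ± 0.22 SE, edgeR adjusted p = 0.18).

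Although phase shares did not detectably differ, gene expression did. A quasi-likelihood test in edgeR, with the pool as covariate, called 874 of 10270 genes at an adjusted p below 0.05 at 72 h, which is 8.51%. Of these, 499 (4.86% of genes tested) were higher and 375 (3.65%) lower in treated mice. At 48 h, 2530 genes (24.6%) had been higher and 2293 (22.3%) lower. The changes at 72 h were small, with a median absolute log2 fold change of 0.31 among called genes and 77 genes past 2-fold, against 112 at 48 h. Their sign was the same in both pools for 855 of the 874 genes. The calls came from a joint fit of those pools, so this agreement is in part built in and no independent check. A test of whether the treatment effect differed between pools called 2 of 10080 genes (587 at an unadjusted p below 0.05).

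The 72 h changes were only in part a remainder of the earlier response. Of the 874 genes, 339 (3.30% of genes tested) had been called in the same direction at 48 h, 172 up and 167 down, which is 38.8% of the 72 h calls and 7.03% of the 48 h calls. A further 162 were called in opposite directions at the 2 times, 106 of them now higher. Both counts stand beside the 24.6% of all genes called higher and 22.3% called lower at 48 h. Whether they differ from those of unrelated calls was not tested. The remaining 373 were called at 72 h alone, and for 211 of those, 130 up and 81 down, the difference between the effects at 72 h and at 48 h was itself called. Over all genes, that difference was called for 3197 (31.1%). The mice of the 72 h comparison are not those of the 48 h comparison, and untreated mice changed little between the 2 times, with 13 genes called between 48 and 72 h. For some falling genes taken up below, however, the mean of untreated mice was higher at 72 h than at 48 h. It was 31.4 against 18.7 CPM for Akap12, 34.1 against 23.2 for Zeb2, 19.3 against 10.9 for Il9r and 157 against 101 for Rgs13. For some rising genes the untreated mean was lower at 72 h than at 48 h. It was 10.7 against 16.2 CPM for Adap1, 50.05 against 63.6 for Msmo1 and 198 against 249 for Bfsp2. For Ly75 it was nearly level, at 49.35 against 49.7 CPM.

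**Figure D2:**
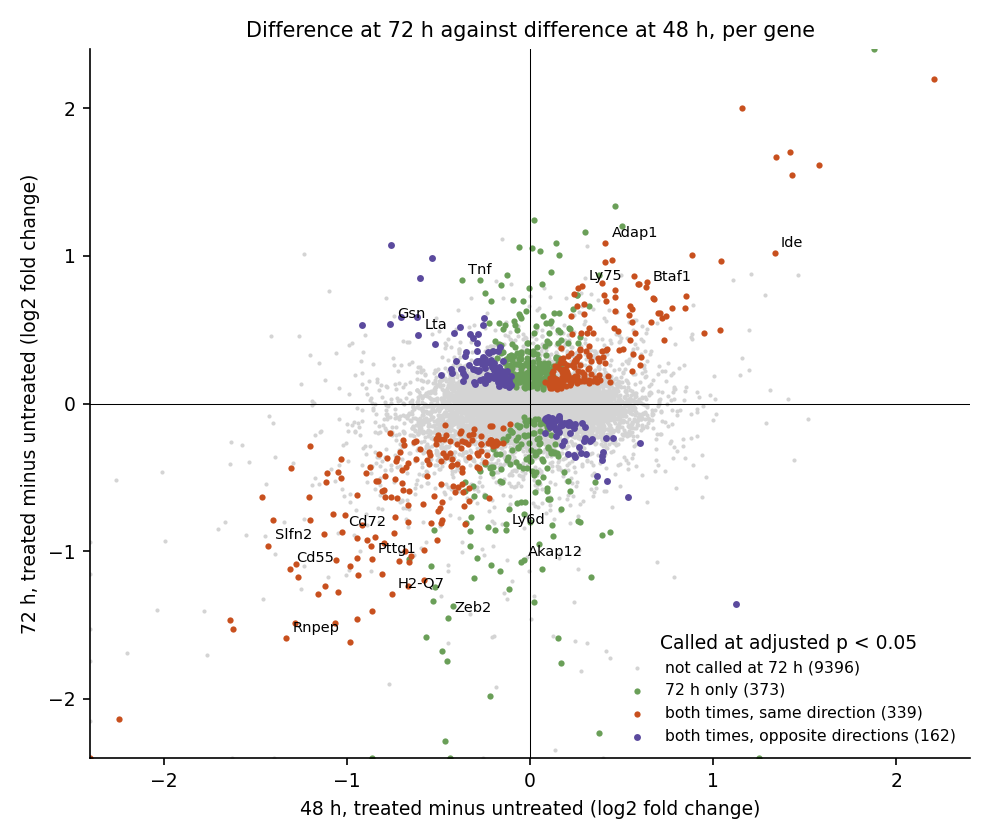
Each point is 1 of 10270 genes, with its log2 fold change of treated over untreated mice at 48 h (x axis) and at 72 h (y axis); colors mark the 339 genes called at both times in the same direction, the 162 called in opposite directions and the 373 called at 72 h alone. Adap1, Ide and Btaf1 lie at the upper right and Rnpep, Cd55 and Slfn2 at the lower left, whereas Tnf and Gsn lie above 0 at 72 h and below 0 at 48 h; 14 genes beyond ±2.4 are drawn on the frame.

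The clearest group to rise was cholesterol synthesis and uptake. Of 29 tested members, 19 rose and 0 fell at 72 h, beside 4.86% and 3.65% of all genes. The median log2 fold change over the list was 0.34 against 0.00 over all genes tested. At 48 h, 14 had risen and 4 had fallen, beside 24.6% and 22.3% of all genes. Of the members, 13 were higher at both times, beside 3.30% of all genes called in the same direction at both, and 5 were called at 72 h alone. The calls included the entry of carbon into the pathway (Hmgcs1, the HMG-CoA synthase), the isoprenoid steps (Mvk, Pmvk, Mvd, Idi1 and Fdps), squalene formation and closure of the sterol ring (Fdft1, Sqle and Lss), the finishing of cholesterol (Cyp51, Msmo1, Nsdhl and Sc5d), sterol transport (Stard4) and regulators (Srebf2 and Insig1). Leaving out any 1 mouse gave 16 to 21 rising members. In the smaller pool alone, where 21 genes were called in all, the count was 1. The list's median there was 0.23 against 0.42 in the larger pool.

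Msmo1, a demethylase of late sterol synthesis, ranged from 53.3 to 100 CPM (median 89.2) in treated and from 37.1 to 65.6 CPM (median 49.8) in untreated mice. Treated mouse 6, of the smaller pool, was the lowest treated mouse, and the other 6 lay above every untreated mouse. The log2 fold change of Msmo1 was 0.79 ± 0.10 (edgeR adjusted p = 2.3e-06) at 72 h and 0.26 at 48 h, and the difference between the times, 0.53, was called (edgeR adjusted p = 0.0046). From 48 to 72 h its mean went from 76.0 to 85.9 CPM in treated and from 63.6 to 50.05 CPM in untreated mice. Hmgcs1 was at 85.6 to 141.8 CPM (median 124.1) in treated and 58.97 to 99.5 CPM (median 71.6) in untreated mice. The groups were separate in the larger pool and overlapped in the smaller, and 5 of the 7 treated mice lay above every untreated mouse. It rose by 0.66 ± 0.09 (edgeR adjusted p = 3.7e-06), and Sqle, the squalene epoxidase, and Cyp51, a sterol demethylase, rose by 0.60 and 0.50. Srebf2, the transcription factor that drives these genes when sterol is scarce, had been lower at 48 h (−0.15) and was higher at 72 h (0.29 ± 0.05, edgeR adjusted p = 9.7e-05), whereas its relative Srebf1, which favors fatty acid synthesis, was at 0.17 ± 0.07 (edgeR adjusted p = 0.17).

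**Figure D3:**
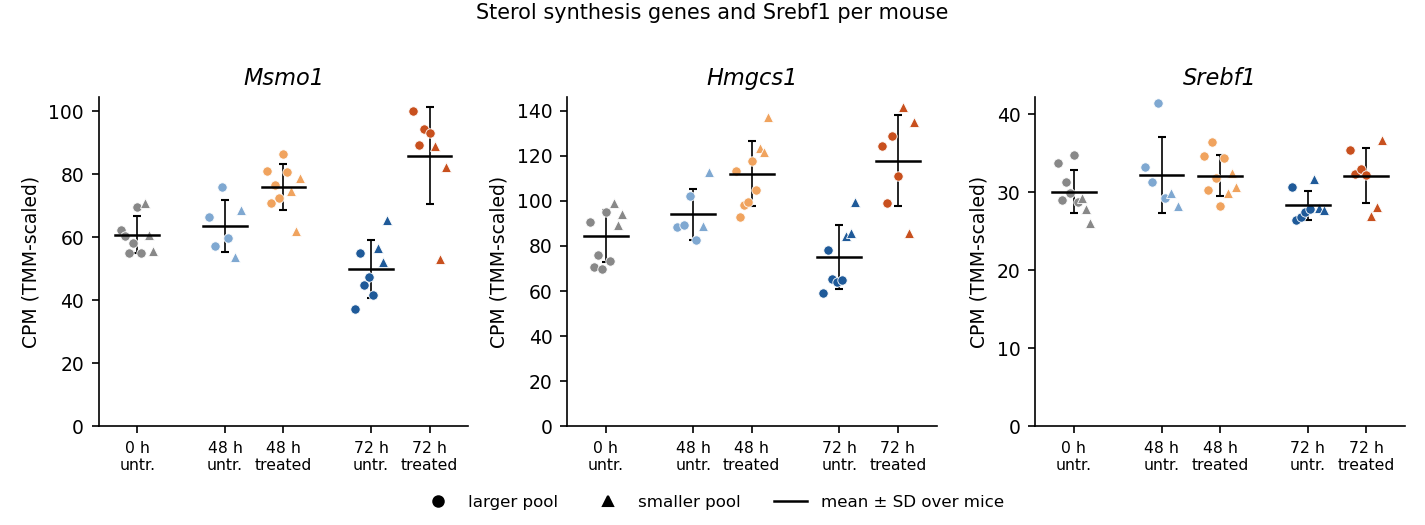
Level of the sterol synthesis genes Msmo1 and Hmgcs1 and of Srebf1 in each mouse (y axis, CPM) by time and treatment (x axis); circles and triangles are mice of the larger and smaller pool, lines and bars the mean ± SD over mice. At 72 h, 6 of 7 treated mice lie above every untreated mouse for Msmo1 and 5 of 7 do for Hmgcs1 and for Srebf1, of which the latter was not called.

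The promoters of 3 rising genes are shown because the list shares a sequence feature there. They are the genes with the smallest adjusted p among the 12 rising members found in the RefSeq promoter table (build GRCm38.p6, 250 bases before to 50 bases after the transcription start, written 5′ to 3′ on the gene's strand). Capitals mark CCAAT, on either strand (as ATTGG on the other), the letters bound by the factor NF-Y, and TCACCCCAC, letters of a sterol regulatory element (SRE) bound by SREBP factors. The windows are chr8:64733529-64733828, minus strand, for Msmo1, chr13:119690101-119690400, plus strand, for Hmgcs1 and chr5:4104648-4104947, minus strand, for Cyp51.
Msmo1: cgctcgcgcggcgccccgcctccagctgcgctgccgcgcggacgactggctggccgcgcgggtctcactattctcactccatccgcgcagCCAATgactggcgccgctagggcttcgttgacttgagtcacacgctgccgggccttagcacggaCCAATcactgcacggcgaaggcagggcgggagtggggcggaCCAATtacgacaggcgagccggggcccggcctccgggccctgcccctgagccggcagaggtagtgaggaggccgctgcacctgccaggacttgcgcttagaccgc
Hmgcs1: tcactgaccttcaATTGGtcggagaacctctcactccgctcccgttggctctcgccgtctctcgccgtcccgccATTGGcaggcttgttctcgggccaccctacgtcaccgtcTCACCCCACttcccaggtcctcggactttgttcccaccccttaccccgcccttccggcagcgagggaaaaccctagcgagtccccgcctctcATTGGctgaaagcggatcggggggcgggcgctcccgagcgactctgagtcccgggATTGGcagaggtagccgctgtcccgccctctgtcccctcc
Cyp51: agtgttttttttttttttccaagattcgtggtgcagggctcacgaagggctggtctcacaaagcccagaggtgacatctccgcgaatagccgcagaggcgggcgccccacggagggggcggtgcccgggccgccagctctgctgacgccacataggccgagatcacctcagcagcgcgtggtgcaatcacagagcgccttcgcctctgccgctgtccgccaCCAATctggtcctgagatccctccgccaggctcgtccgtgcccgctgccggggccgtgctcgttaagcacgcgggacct
CCAAT stood in at least 1 window of 12 of the 12 matched rising members and of 18 of the 21 matched members of the list, as it did in 44.2% of 8264 matched genes tested here and in 37.4% of 32851 windows of this length in the table. The SRE letters stood in 1 of the 12, Hmgcs1, and in 0.551% of windows. Fdps, Fdft1, Sqle and Stard4 were among the rising members not matched. A match of letters is a description of the window and not a site shown to be used.

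Adap1, an ARF GTPase-activating protein, led the rises among genes with an average level above 4 on the log2 CPM scale and the same direction in both pools. Its level was 18.1 to 27.3 CPM (median 23.01) in treated mice and 5.83 to 16.6 CPM (median 9.64) in untreated mice. No treated mouse fell within the untreated range. The log2 fold change was 1.09 ± 0.13 (edgeR adjusted p = 3.6e-08), higher than the 0.41 of 48 h by 0.68 (edgeR adjusted p = 0.0019), and was 1.10 and 1.07 in the 2 pools and 1.01 in G0-G1 cells alone. From 48 to 72 h the mean of treated mice went from 21.5 to 22.9 CPM and that of untreated mice from 16.2 to 10.7 CPM.

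Ly75 encodes DEC-205, the receptor that the treatment targets. Within the larger pool it was at 62.1 to 71.4 CPM in treated and 32.0 to 47.7 CPM in untreated mice, and within the smaller pool at 99.9 to 133 and 57.3 to 77.3 CPM. The groups overlapped across pools and not within either. The log2 fold change of 0.79 ± 0.11 (edgeR adjusted p = 9.0e-06) was larger than the 0.28 of 48 h by 0.51 (edgeR adjusted p = 0.012). In cells with the B1-8hi pairing alone it was 0.93 and was called as well (edgeR). Whether more cells held Ly75 RNA or each held more was not tested.

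Several other genes rose at both times. They were picked for large called changes, so a gap between their groups is in part built in. The share of all genes with separate groups was not counted. Ide, the insulin-degrading protease, was at 13.9 to 24.9 CPM against 6.34 to 11.1 CPM, with log2 fold changes of 1.02 ± 0.14 at 72 h (edgeR adjusted p = 2.0e-06) and 1.34 at 48 h. It lies at chr19:37245688-37340729 (GRCm39), and Btaf1, at chr19:36903472-36991455, which removes the TATA-binding protein from DNA, rose by 0.79 ± 0.05 (edgeR adjusted p = 6.1e-16) and by 0.63 at 48 h. Cryz, a quinone oxidoreductase, was at 21.02 to 26.1 CPM in treated and 10.7 to 14.8 CPM in untreated mice (log2 fold change 0.82 ± 0.10, edgeR adjusted p = 1.9e-07). Bfsp2, a filament protein known from the lens that GC B cells also transcribe, stood at 278 to 398 against 161 to 256 CPM (0.77 ± 0.08, edgeR adjusted p = 1.2e-08). Emid1, a secreted protein, was separate within each pool and rose by 0.82 ± 0.08 (edgeR adjusted p = 2.2e-09). Camk2b, St3gal6 and Palm, a kinase, a sialyltransferase and a membrane-shape protein, rose by 0.64, 0.61 and 0.58. The call for Camk2b was lost without untreated mouse 6, 7 or 8 or treated mouse 5, with 0.53 as the lowest log2 fold change and 0.087 as the highest adjusted p (edgeR). Camk2b groups overlapped in the larger pool and were separate in the smaller. Its effect was larger in the smaller pool by 1.14 on the log2 scale (edgeR unadjusted p = 0.00018, adjusted p = 0.45).

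Tnf and its neighbor Lta, cytokine genes of activated lymphocytes, were higher at 72 h and not at 48 h. Tnf stood at 30.4 to 35.6 CPM in the treated mice of the larger pool against 14.2 to 17.8 CPM, and averaged 21.8 against 16.65 CPM in the smaller. Separation was complete in the larger pool and absent in the smaller. Its log2 fold change was 0.84 ± 0.21 at 72 h (edgeR adjusted p = 0.0081) and −0.37 at 48 h, and the difference of 1.21 was called (edgeR adjusted p = 0.0015). Lta rose by 0.47 (edgeR adjusted p = 0.010) after a fall of −0.61 at 48 h. Dlgap2, a scaffold protein best known from synapses, likewise rose at 72 h (0.84 ± 0.21, edgeR adjusted p = 0.0090) and was −0.27 at 48 h. Hbb-bh1, an embryonic globin gene, rose by 1.06 ± 0.20 (edgeR adjusted p = 0.00092), and did so by 1.36 in the larger pool and 0.19 in the smaller. Its reads could be shared with the related globin genes, of which Hbb-bt rose by 0.87 and Hbb-bs, the main adult beta globin, was at 1.48 CPM in treated and 1.17 CPM in untreated mice.

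Genes that fell at 72 h were led by Rnpep, an aminopeptidase. Its gene lies at chr1:135190438-135211839 (GRCm39). It ranged from 5.68 to 10.6 CPM (median 7.41) in treated and from 22.4 to 26.5 CPM (median 24.6) in untreated mice. The gap between the groups was wider than the range within either. The log2 fold change was −1.59 ± 0.13 (edgeR adjusted p = 1.1e-12), after −1.33 at 48 h, and was −2.01 in G0-G1 cells and −1.46 in cells with the B1-8hi pairing.

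Zeb2, a transcriptional repressor that favors effector over memory fates in lymphocytes, was at 6.28 to 31.0 CPM (median 10.5) in treated mice and at 21.7 to 46.7 CPM (median 33.3) in untreated mice. In the larger pool the 4 treated mice lay between 6.28 and 10.5 CPM and in the smaller the 3 lay between 15.8 and 31.0 CPM, the last of them treated mouse 6, inside the untreated range. Its log2 fold change was −1.46 ± 0.25 (edgeR adjusted p = 0.00018), −2.15 in the larger and −0.71 in the smaller pool, and −0.45 at 48 h (difference −1.01, edgeR adjusted p = 0.019). Akap12, a kinase-anchoring scaffold, fell by 1.07 ± 0.18 on the log2 scale (edgeR adjusted p = 0.00019), with −0.05 at 48 h and a called difference of −1.03 (edgeR adjusted p = 0.0021). Cers6, a ceramide synthase, changed by −1.15 ± 0.15 (edgeR adjusted p = 7.7e-07) and by −0.81 at 48 h. Pttg1, the securin that restrains separase until chromatids part, was at 35.6 to 55.1 CPM against 84.0 to 118 CPM with no overlap. It differed by −1.05 ± 0.09 (edgeR adjusted p = 2.3e-11) in all cells, −1.60 in G2-M cells and 0.00 in G0-G1 cells, and is not one of the 51 listed genes of G2 and mitosis.

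**Figure D4:**
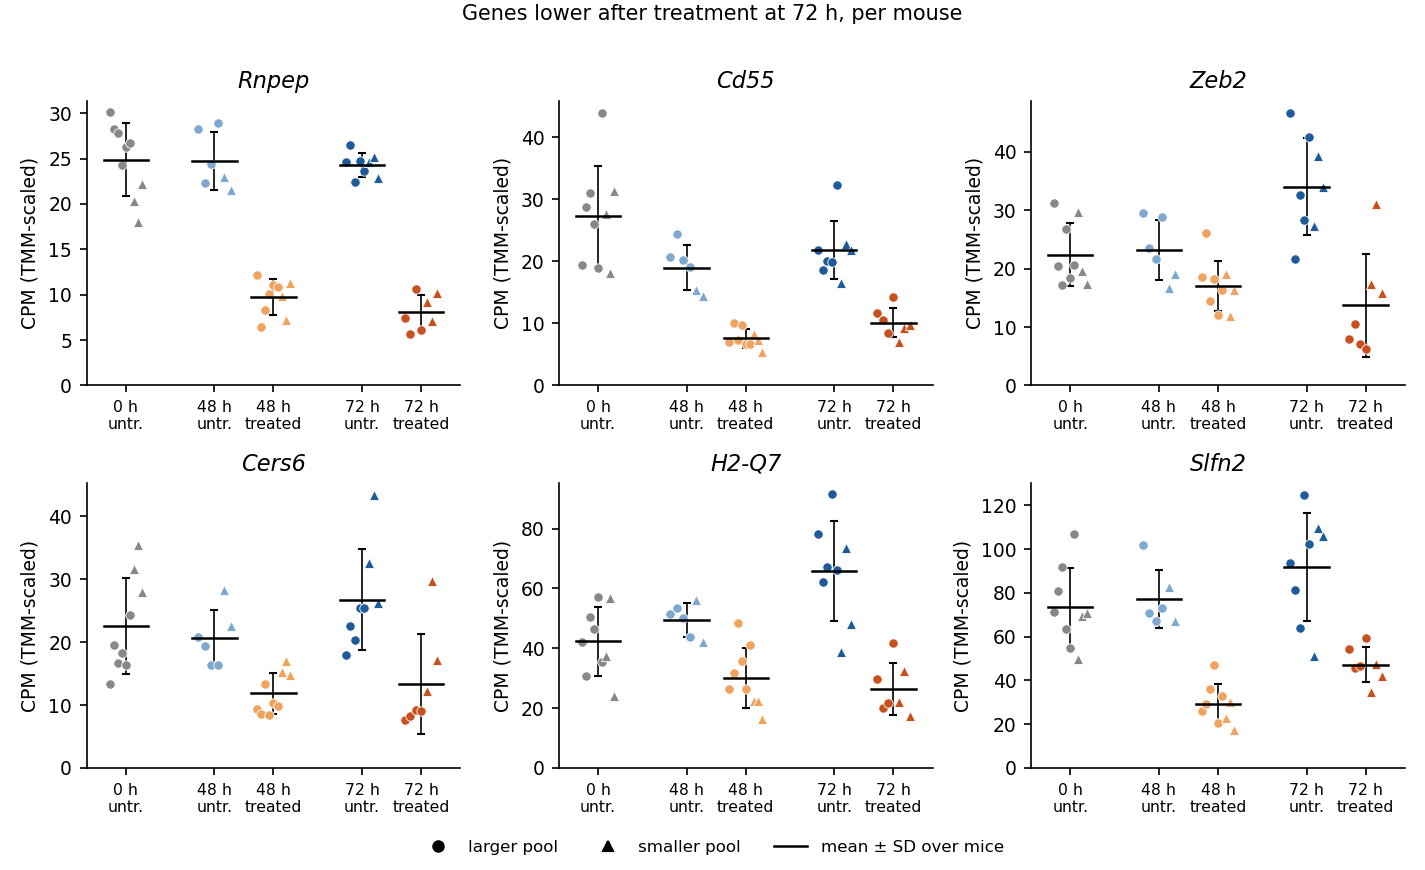
Level of 6 falling genes in each mouse (y axis, CPM) by time and treatment (x axis); circles and triangles are mice of the larger and smaller pool, lines and bars the mean ± SD over mice. Rnpep and Cd55 are lower in every treated mouse at 48 and 72 h than in any untreated mouse of the same time; for Zeb2 and Cers6, 1 treated mouse of the smaller pool at 72 h lies within the untreated range.

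Memory precursors are the GC B cells that leave as memory cells, and some of the genes that mark them fell. Of 21 tested, 8 fell and 1, the splicing regulator Celf2, rose by 0.11, beside 3.65% of all genes called lower and 4.86% called higher, with a median log2 fold change of −0.42. Cd55, which protects cells from complement, was at 6.93 to 14.2 CPM (mean 10.1) in treated and 16.6 to 32.2 CPM (mean 21.8) in untreated mice. No mouse overlapped, and the log2 fold change of −1.12 ± 0.17 (edgeR adjusted p = 2.9e-05) was close to the −1.31 of 48 h. Il9r, the interleukin-9 receptor, was at 5.64 to 10.8 CPM against 10.97 to 30.4 CPM and fell by 1.24 ± 0.19 on the log2 scale (edgeR adjusted p = 3.6e-05). Ly6d, a surface antigen of early B cells, fell at 72 h (−0.86 ± 0.12, edgeR adjusted p = 1.2e-05) and was −0.13 at 48 h, a called difference (−0.73, edgeR adjusted p = 0.0011). Gpr183, the oxysterol receptor that draws B cells to the outer follicle, Ccr6 and Bcl2 fell by 0.88, 1.10 and 1.06 on the log2 scale, at levels of 12.2, 4.08 and 2.46 CPM in treated mice. Those 3 calls were lost on leaving out any 1 of 4, of 2 and of 3 mice, respectively, and the call for Cd38 on leaving out any 1 of 11. The list held 4 falling members without treated mouse 1, treated mouse 3 or untreated mouse 8, 5 without treated mouse 2 and 9 without treated mouse 6.

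Because some of these genes also mark naive or follicular B cells, that list was counted too. Of its 8 members, 4, among them Fcmr, Cd38 and Gpr183, fell and 0 rose, beside 3.65% and 4.86% of all genes, and their summed level was 277 to 524 CPM (median 448) in treated and 335 to 744 CPM (median 581) in untreated mice. Its defining gene Ccr7, a chemokine receptor, was at 29 UMIs in all treated mice together and at 82 UMIs in all untreated mice. In summed counts, fewer cells of a type and less RNA per cell cannot be told apart. Cd3d, Cd3e and Cd3g, which define T cells, were at 0.486 to 0.876 CPM over all treated cells and 1.498 to 2.746 CPM over all untreated cells, with 0 of 7 tested T cell markers called. The study describes its GC gate as also negative for the T cell receptor beta chain. What part T cells had in the differences was not tested.

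Heavy chains of MHC class I, both classical and nonclassical, fell. Of 22 tested genes of class I presentation, 7 fell and 1, the immunoproteasome subunit Psmb8, rose (0.16, edgeR adjusted p = 0.0016), beside 3.65% and 4.86% of all genes. H2-Q7 was at 17.2 to 41.7 CPM (median 22.2) in treated and 38.7 to 91.5 CPM (median 66.8) in untreated mice. Groups were separate within each pool, with a log2 fold change of −1.29 ± 0.20 (edgeR adjusted p = 5.3e-05). H2-Q6, its near-identical neighbor, fell by 0.94 ± 0.17 on the log2 scale (edgeR adjusted p = 0.00037), and the division of reads between the 2 is uncertain. H2-K1 and H2-D1, the classical heavy chains, fell by 0.44 and 0.26, H2-T23 by 0.35 and H2-T22 by 0.24, as did Tapbp, the peptide-loading chaperone tapasin, by 0.24 (all on the log2 scale). These 7 had also fallen at 48 h. In all cells, class II presentation, where 14 of 16 genes had fallen at 48 h (beside 22.3% of all genes), held 1 call at 72 h, H2-Oa, a brake on class II peptide exchange (−0.43, edgeR adjusted p = 0.0067). Cd74, the invariant chain, was at −0.04 ± 0.05 (edgeR adjusted p = 0.73). In G0-G1 cells alone, however, 9 of 16 class II genes and 10 of 22 class I genes fell, beside 4.58% of all genes tested there.

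Interferon-stimulated and Schlafen genes had a negative median, which differed between the pools. Of 38 tested, 5 fell and 0 rose, beside 3.65% and 4.86% of all genes, with a median log2 fold change of −0.59 that was −0.19 in the larger and −1.16 in the smaller pool. The count ran from 2 without treated mouse 3 to 12 without untreated mouse 6, and was moved by over 1.5 times on leaving out any 1 of 10 mice. The firmest of the 5 was Slfn2, which keeps lymphocytes quiescent, at 34.8 to 59.5 CPM in treated and 51.2 to 125 CPM in untreated mice. Its groups were separate within each pool, and it fell by 0.96 ± 0.18 on the log2 scale (edgeR adjusted p = 0.00077) after 1.43 at 48 h. Trim30d and Ifi203, outside that list, were lower by 1.03 and 1.04 on the log2 scale, calls that were lost on leaving out any 1 of 3 and of 11 mice.

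Genes of GC identity stayed on and in part rose. Of 26 tested, 7 rose and 1 fell, beside 4.86% and 3.65% of all genes, where 7 had risen and 14 fallen at 48 h, beside 24.6% and 22.3%. Bcl6, the repressor that defines GC B cells, was at 272 to 334 CPM (median 290) in treated and 247 to 274 CPM (median 260) in untreated mice. All treated mice but 1 were above the highest untreated mouse. Its rise was small, 0.18 ± 0.04 (edgeR adjusted p = 0.0045), and followed a fall of −0.21 at 48 h, the difference of 0.40 being called (edgeR adjusted p = 7.8e-06). Nuggc, a GC-specific GTPase, rose by 0.31 ± 0.05 (edgeR adjusted p = 4.9e-05), Spi1, which encodes PU.1, by 0.30 ± 0.06 (edgeR adjusted p = 0.00049), and S1pr2, the receptor that confines B cells to the GC, by 0.25 ± 0.05 (edgeR adjusted p = 0.0015). Gna13, listed with positioning genes, which couples S1pr2 to its signal, rose by 0.23 ± 0.05 (edgeR adjusted p = 0.00076). The falling member was Rgs13, which dampens chemokine receptor signaling, at 71.6 to 110 CPM against 123 to 221 CPM with no overlap (−0.73 ± 0.15, edgeR adjusted p = 0.0013).

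Most light-zone genes that had changed at 48 h were not called at 72 h, whereas several genes of the dark zone and positioning were. Of 15 tested members of the latter list, beside 8.51% of all genes called, 3 rose (S1pr2, Gna13 and Arhgef1) and 4 fell (Gpr183, Rgs13, Lmo4 and Ccnd3) at 72 h, and of the 9 called at 48 h, 3 were called again in the same and 2 in the opposite direction. Cxcr4, the chemokine receptor that holds cells in the dark zone, had a log2 fold change of −0.11 ± 0.07 (edgeR adjusted p = 0.37), Foxo1, required for the dark zone, of 0.02 ± 0.05 (edgeR adjusted p = 0.91), and the light-zone marker Cd83 of −0.19 ± 0.07 (edgeR adjusted p = 0.11) after −1.14 at 48 h. Of 32 light-zone activation genes, 27 had fallen at 48 h, beside 22.3% of all genes, and 6 were lower and 2 higher (1 without treated mouse 7) at 72 h, beside 3.65% and 4.86%. In G0-G1 cells 9 of 30 were lower and 0 higher, beside 4.58% and 4.54% of all genes tested there. All 6 were called at 48 h too, and 5 of them belong to NF-κB signaling, with smaller changes than before. Nfkbia, the NF-κB inhibitor and target, was at −0.39 ± 0.08 (edgeR adjusted p = 0.0012) after −0.73, Nfkb2 at −0.37 after −0.73, Birc3 at −0.37 after −0.78, Relb at −0.28 after −0.69 and Nfkb1 at −0.19 after −0.38. The difference between the times was called for all 5 (edgeR adjusted p between 0.0021 for Relb and 0.031 for Nfkb1). Il4i1, an amino-acid oxidase induced by IL-4, was the remaining one (−0.44 after −1.30), and its call was lost without treated mouse 3 or 4 or untreated mouse 5. Ccnd3, the cyclin that sustains dark-zone division, was at 245 to 343 CPM in treated and 288 to 406 CPM in untreated mice, separate within each pool. It fell by 0.26 ± 0.06 on the log2 scale (edgeR adjusted p = 0.0017), opposite to its rise of 0.18 at 48 h (difference −0.44, edgeR adjusted p = 4.0e-05). Lmo4, a LIM-only protein, fell by 0.71 ± 0.11 at 72 h (edgeR adjusted p = 2.4e-05) and was 0.17 at 48 h. Cdkn1b, the CDK inhibitor p27, fell by 0.48 ± 0.12 (edgeR adjusted p = 0.0068) with 0.02 at 48 h, and Ccnd2, a light-zone cyclin, was not called (−0.80 ± 0.37, edgeR adjusted p = 0.20). In the larger pool Ccnd2 was at 2.29 to 4.26 CPM in treated and 9.875 to 21.7 CPM in untreated mice, and in the smaller pool the groups overlapped. The effects in the 2 pools differed by 2.07 on the log2 scale (edgeR unadjusted p = 0.0047, adjusted p = 0.83).

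Genes of antigen receptor signaling moved differently at the 2 times. None of its 30 genes had risen and 24 had fallen at 48 h, beside 24.6% and 22.3% of all genes, whereas 5 rose and 2 fell at 72 h, beside 4.86% and 3.65%. Plcg2, the phospholipase downstream of the receptor, was at 284 to 345 CPM against 216 to 283 CPM, with no overlap (0.30 ± 0.05, edgeR adjusted p = 0.00013), and had been −0.10 at 48 h. Pik3ap1, an adaptor for PI3-kinase, rose by 0.30 ± 0.06 (edgeR adjusted p = 0.0018) after a fall of −0.21, and Inpp5d, the lipid phosphatase SHIP, by 0.15. Without untreated mouse 1, treated mouse 3 or treated mouse 4 the list held 3 rises. In G0-G1 cells alone 0 of its members rose and 5 fell, beside 4.54% and 4.58% of all genes tested there. Cd72, an inhibitory co-receptor, fell at both times, by 0.87 ± 0.15 on the log2 scale at 72 h (edgeR adjusted p = 0.00018) and by 1.03 at 48 h, and was separate within each pool. Btg2, an antiproliferative gene, fell by 0.75 ± 0.11 (edgeR adjusted p = 1.9e-05) after 1.01 at 48 h, and Dusp5, a phosphatase induced by ERK signaling, rose by 0.73 ± 0.10 (edgeR adjusted p = 8.4e-07) after 0.40.

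Genes that act downstream of mutagenic deamination in somatic hypermutation were mostly not called. Of 24 tested, 2 rose and 0 fell at 72 h, and this count is near the 8.51% of all genes called. At 48 h, 14 had risen and 2 fallen, beside 24.6% and 22.3% of all genes. Hmces, which shields abasic sites, was at 478 to 685 CPM in treated and 398 to 557 CPM in untreated mice and rose by 0.37 ± 0.06 (edgeR adjusted p = 1.9e-05) after 0.51. Parp1, a sensor of DNA breaks, rose by 0.12 ± 0.04 (edgeR adjusted p = 0.041), a call lost on leaving out any 1 of 11 mice. Ung, Neil1, Neil3, Apex1, Apex2, Msh6, Polh, Fam72a and Xrcc1 were not called, with log2 fold changes between −0.26 for Ung and 0.09 for Neil1. For Ung, Neil1, Neil3, Apex1, Msh6, Polh, Fam72a and Xrcc1 the 72 h effect was lower than the 48 h effect by a called difference, of which the largest was −0.59 for Ung (edgeR adjusted p = 0.015).

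Genes called in opposite directions at the 2 times included Ly6k, Hapln1, Kcnmb4, Gamt, Pxdc1 and Gsn. Gsn, the actin-severing protein gelsolin, was at 178 to 203 CPM in the treated mice of the larger pool against 88.35 to 169.5 CPM, and at 84.3 to 129 against 59.7 to 88.2 CPM in the smaller. It was separate in the larger pool and overlapped in the smaller. It rose by 0.54 ± 0.13 at 72 h (edgeR adjusted p = 0.0072) after a fall of −0.76 at 48 h, a difference of 1.30 (edgeR adjusted p = 6.3e-06). Hapln1, a matrix-linking protein, changed by 1.07 after −0.76 and Ly6k, a surface antigen, by −1.36 after 1.13, both at a mean under 10 CPM in each 72 h group. The call for Pxdc1 at 72 h (0.54) was lost on leaving out any 1 of 11 mice, and that for Gamt without treated mouse 3 or untreated mouse 1 (lowest log2 fold change 0.75, highest edgeR adjusted p = 0.070).

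Some genes called at 72 h and not at 48 h were scarce. Prdm1, the driver of plasma cell differentiation, was at 0 to 1.68 CPM (median 0.628) in treated and 0.886 to 16.1 CPM (median 6.995) in untreated mice. The groups were separate in the larger pool and overlapped in the smaller. Its log2 fold change was −3.22 ± 0.80 (edgeR adjusted p = 0.0093), from 22 UMIs in all treated and 257 in all untreated mice, against −0.86 at 48 h (difference −2.35, edgeR adjusted p = 0.078), while Jchain, which joins secreted antibody chains, was at −0.10 ± 0.17 (edgeR adjusted p = 0.81). Il2ra, the interleukin-2 receptor alpha chain, was at 0 to 0.419 CPM against 0.834 to 5.66 CPM (edgeR adjusted p = 0.0014). Chrna9, a nicotinic receptor subunit, rose by 1.01 ± 0.17 without overlap (edgeR adjusted p = 7.8e-05). Plac8 and S100a10 fell by 2.23 and 1.76 on the log2 scale, each call lost on leaving out any 1 of 10 mice, and Mx1, an interferon-induced GTPase, fell by 3.90, a call lost without treated mouse 3 (edgeR adjusted p = 0.054). Mx1 could be tested in 12 of the 15 fits with 1 mouse left out, and 1 untreated mouse was at 20.1 CPM beside a group median of 1.203 CPM.

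Oxidative phosphorylation and glycolysis held few calls in all cells and more rises in G0-G1 cells. Of 62 nuclear subunits of oxidative phosphorylation, 58 had risen at 48 h, beside 24.6% of all genes. At 72 h, 4 rose and 1 fell, close to the 4.86% and 3.65% of all genes. The falling one was Uqcrq, a complex III subunit, at 249 to 286 CPM against 322 to 351 CPM without overlap (−0.29 ± 0.05, edgeR adjusted p = 2.4e-05), which was −0.09 in G0-G1 cells. Without treated mouse 1 there were 0 rises and without treated mouse 7 there were 9, and leaving out any 1 of 8 mice moved that count by over 1.5 times. In G0-G1 cells alone 14 of the 62 rose and 0 fell, beside 4.54% and 4.58% of all genes tested there. Amino-acid transporters and one-carbon enzymes, of which 17 of 25 had risen at 48 h (beside 24.6% of all genes), held 3 falls at 72 h (beside 3.65%). The falls numbered 1 without untreated mouse 1 and 5 without treated mouse 6, and the count moved by over 1.5 times for 7 mice. Among the 3 was Phgdh, the first enzyme of serine synthesis (−0.36, lost on leaving out any 1 of 6 mice). Glycolysis held 1 call of 22, Hif1a (0.20), the oxygen-sensing factor that induces it (up to 3 calls, without treated mouse 6, with the count moved by over 1.5 times for 4 mice), and 7 of its 20 genes tested in G0-G1 cells rose, beside the same 4.54%.

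**Figure D5:**
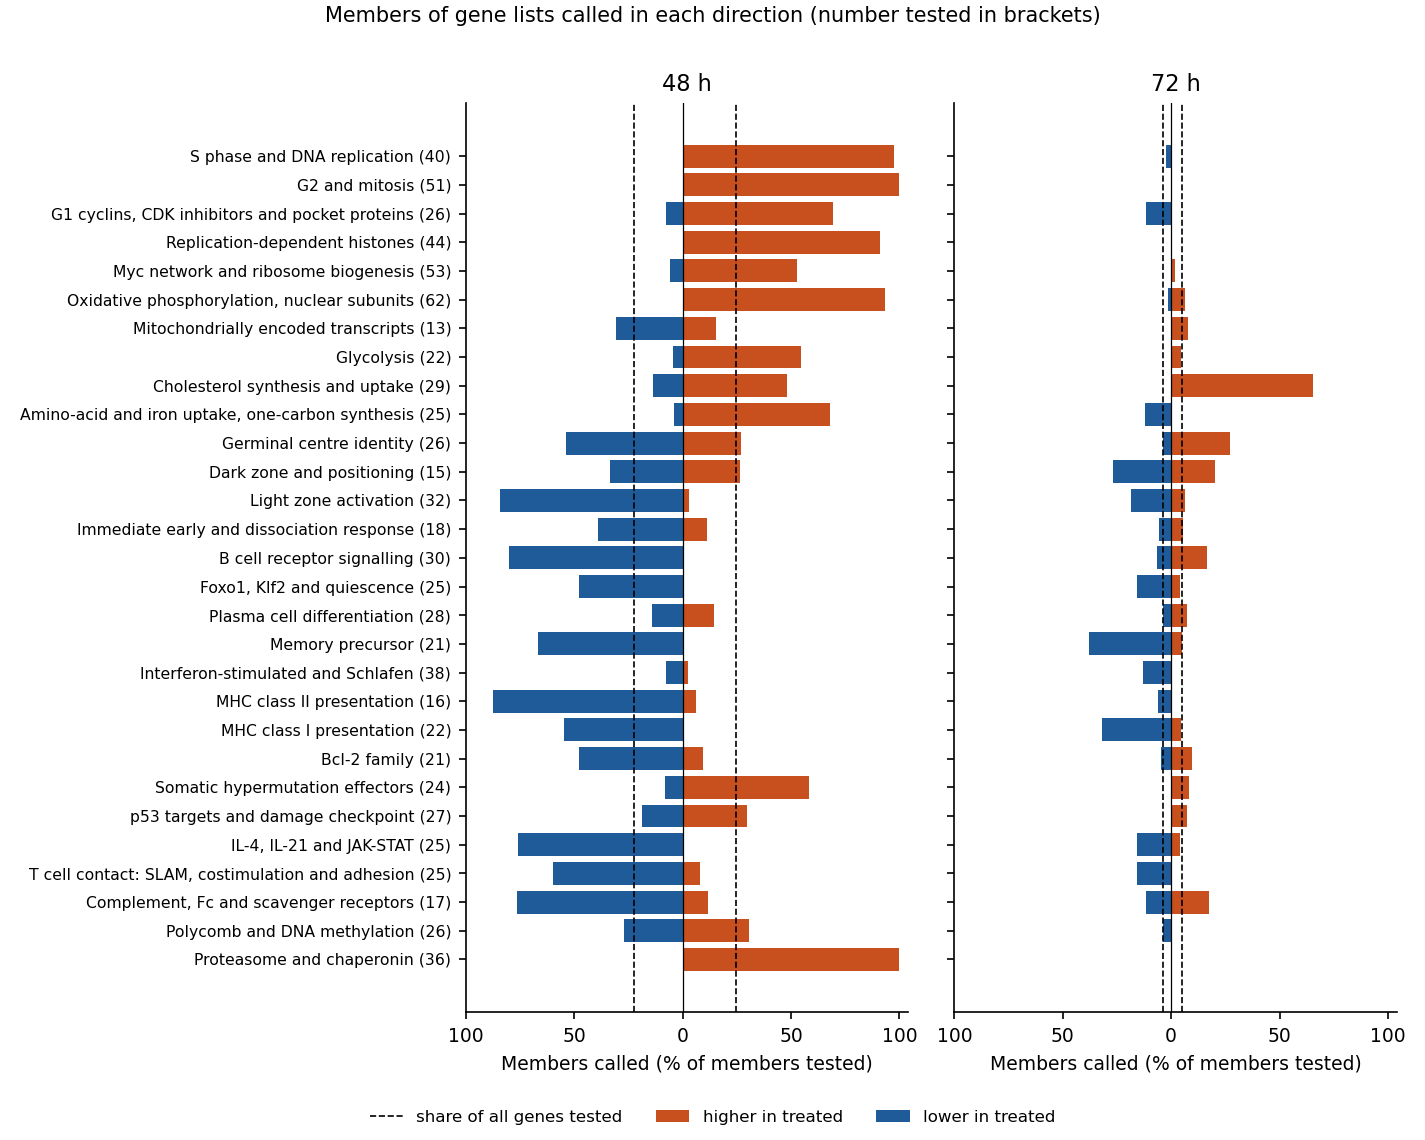
Percentage of the tested members of each list called higher (right of 0) or lower (left of 0) in treated mice at 48 h and at 72 h (x axis), with dashed lines at the share of all genes tested called in each direction. Cell-cycle, histone and proteasome lists fill the right side at 48 h and are empty or nearly so at 72 h, whereas 19 of 29 cholesterol genes are higher at 72 h and 8 of 21 memory precursor and 7 of 22 class I genes are lower.

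The test was repeated on G0-G1 cells alone, which are a subset of the same cells and therefore no independent check of the calls. In those cells 409 genes (4.54% of 9013) were higher and 413 (4.58%) lower at 72 h. Of the 816 genes called in all cells and tested here, 369 were called again. Within G0-G1 cells, 209 of the 822 calls (25.4%) had been called in the same direction at 48 h and 17 in the opposite one. The cholesterol list had 16 rising members and 1 falling one, and the memory precursor list had 12 falling and 0 rising members with a median of −1.03, while 7 of the 8 naive or follicular B cell markers also fell there, with a median of −1.15. In cells with the B1-8hi receptor pairing, 421 genes were higher and 288 lower, with 17 rising and 1 falling cholesterol genes and 1 rising and 3 falling memory precursor genes, and 1 of 7 tested naive or follicular markers fell.

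A first, separate experiment held 3 treated and 3 untreated mice on day 10. There the treated cells had been sorted for low mCherry, which marks cells that divided more, and the untreated cells had not, so that sort and treatment cannot be told apart. It called 179 of 9078 genes (1.97%), 76 higher and 103 lower. Of the 810 genes called at 72 h and tested there, 662 (81.7%) had the same sign, against 59.4% of all genes tested in both. Both experiments called 80 genes in the same direction, which is 9.88% of the 72 h calls tested there and 44.7% of the calls of the first experiment. Adap1 (1.41), Dlgap2 (1.43), Ly75 (0.91), Bfsp2 (0.66), St3gal6 (0.99) and Palm (0.82) rose in the first experiment as well, and Zeb2 (−1.22), Akap12 (−1.02), Cd72 (−1.41), Pkib (−1.22) and Lmo4 (−1.34) fell (log2 fold changes, edgeR). Adap1 was scarce there, at 18.2 to 21.1 CPM in treated and 0 to 8.68 CPM in untreated mice. Ly75 was at 41.4 to 54.0 and 11.4 to 28.9 CPM, respectively. Pkib encodes an inhibitor of protein kinase A and had fallen by 0.91 at 72 h. Rnpep was among 3 genes with the opposite call, at 0.67 (edgeR adjusted p = 0.0056), and H2-Q7 was at 0.01. Several lists with falling genes at 72 h held none there, with 0 falling and 1 rising of 19 memory precursor genes, 0 and 1 of 22 class I genes and 0 and 2 of 23 interferon-stimulated genes, while 5 of 30 antigen receptor signaling genes fell and 1 rose. Of all 9078 genes, 103 were called lower and 76 higher there, so lists of this size would hold few or no falls. The absence of falls is therefore no test of whether those changes recur. Of 29 cholesterol genes 3 rose and 0 fell. Ifi203 (1.505) and Gpr183 (0.48) had the opposite sign there and were not called, nor were S100a10 (1.15, also opposite), Tnf (0.42) and Pttg1 (−0.14). Ide and Btaf1 overlapped between the groups there. Ide was at 5.21 to 11.1 CPM in treated and 4.78 to 8.53 CPM in untreated mice. Btaf1 was at 34.6 to 47.8 and 25.1 to 48.4 CPM, respectively. Without its untreated mouse 2 or untreated mouse 1 the first experiment called 59 or 107 genes.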

How the data were processed

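GC B cells were profiled by 10x 5′ single-cell RNA sequencing in 2 hashtagged time-course pools of 39 mice and 1 pool of a first experiment. The deposited values are raw UMI counts for each cell barcode, of genes and of hashtags. The file headers name CellRanger 8.0.1 for the time course and 7.1.0 for the first experiment, the submitters' processing notes Cell Ranger 6.0.1, Seurat 5.1.0 and build mm39. Different versions of the counter do not enter any comparison between groups.

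Hashtags were called with HTODemux in Seurat 5.3.0 (positive quantile 0.99). In the time course a cell needed both hashtags of 1 mouse, and no further hashtag, to be assigned. Cells positive for more than 2 hashtags were left out there (1936 in the larger and 2705 in the smaller pool). In the first experiment each mouse had 1 hashtag, and 2200 cells positive for more than 1 were left out. Cells whose hashtags matched no mouse were left out too. Doublets within a mouse were not searched for. Cells needed at least 200 genes and under 10% mitochondrial UMIs, which kept 13625 of 13976 assigned cells in the larger and 10073 of 13187 in the smaller pool. Phases came from CellCycleScoring. The hashtag list maps each mouse to its group.

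Sums over each mouse's cells entered edgeR 4.0.16 under R 4.3.3 (filterByExpr, TMM, robust quasi-likelihood test, pool as covariate, all 39 mice in 1 fit, Benjamini-Hochberg adjustment over all genes tested, threshold 0.05). Genes past the threshold are called, SE is of the log2 fold change, and CPM is TMM-scaled. Phase shares were compared by two-sided exact permutation tests within pools. On counts simulated for this comparison over 10197 genes, the test called 76.5% of genes changed by 0.5 and 90.9% of genes changed by 1 on the log2 scale, and 0.08% of unchanged genes. The simulated counts took their spread from the same fit and held no effect at 48 h. They do not cover outlying mice or differences in cell mix. Alternatives were DESeq2 1.42.0, other size factors, filters, fits, hashtag calls and cell subsets, each pool alone and leaving out each mouse. No replicate number pairs mice.

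Named genes have a symbol that is not a gene-model number and are not immunoglobulin genes. They are the 12 largest rises and falls whose average log2 CPM exceeds 4 and whose direction is shared by both pools, genes called at both times, in opposite directions or at 72 h alone with a called difference, up to a few members of each of 40 lists, and genes named by the study. Other genes in the text are members of a list, named after their values were seen (such as Lta, Relb, H2-K1 and Socs2). Some list members are counted with their list and not reported here by name. The members and lists were chosen with earlier results of these data known. Gene positions are from GENCODE M39 on GRCm39.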

Additional observations from a re-analysis of the deposited data

Results flagged for a closer look

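In 11 of 130 gene and group combinations, the gap between the highest or lowest mouse and its neighbor, relative to the range of the group, was past Dixon's critical value. That value is set so that chance passes it in about 1 in 20 groups. Among treated mice these were the lowest Msmo1 (53.26 CPM) and Cd83 (196.3 CPM) and the highest H2-Q6 (67.64 CPM), Kcnmb4 (5.033 CPM), Chrna9 (36.74 CPM) and Plac8 (11.32 CPM). Among untreated mice they were the highest Cd55 (32.22 CPM), Ifi203 (57.34 CPM), Ly6k (20.63 CPM), Mx1 (20.11 CPM) and Il2ra (5.662 CPM).

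The effect of treatment differed between 72 h and 48 h for 3197 genes by the edgeR test of that difference. Values that follow are the log2 fold change at 72 h minus that at 48 h. It was positive for Adap1 (0.6778), Hbb-bh1 (1.045), Dlgap2 (1.11), Tnf (1.209), Emid1 (0.4238), Ly75 (0.5118), Msmo1 (0.5264), Bfsp2 (0.3024), Hapln1 (1.832), Kcnmb4 (1.523), Gamt (1.453), Pxdc1 (1.452), Gsn (1.298), Spsb1 (1.222), Chrna9 (0.8484), Vill (0.7774), Hbb-bt (0.9997), Foxo1 (0.2931), Bcl6 (0.3966) and Cd83 (0.9534). It was negative for Zeb2 (−1.006), Akap12 (−1.026), Ly6k (−2.485), Mx1 (−5.151), Il2ra (−2.304), Plac8 (−2.607), S100a10 (−1.928), Adgrl2 (−1.741) and Ccnd3 (−0.4392). Among hypermutation effectors it was negative for Ung (−0.5853), Neil1 (−0.151), Neil3 (−0.4111), Apex1 (−0.5362), Msh6 (−0.2424), Polh (−0.4317), Fam72a (−0.5816) and Xrcc1 (−0.2205).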

How the results depend on the processing

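The number of genes called at 72 h stayed within 1.5 times of 874 with DESeq2 (1000), RLE size factors (891), no filter on low counts (709), only the 72 h groups in the fit (752), no filter on cells (811), the highest-hashtag rule (918) and the larger pool alone (803), and ran from 615 without treated mouse 3 to 1042 without treated mouse 6. Calls at 72 h, at 48 h, at both times and of the difference between times were 216, 2681, 95 and 1216 with no pool term, 385, 1047, 63 and 531 in S cells, 285, 1587, 61 and 880 in G2-M cells and 21, 2195, 16 and 809 in the smaller pool alone, which has 3 mice a group. In B1-8hi cells 225 genes were called at both times and 1881 by the difference, and in G0-G1 cells 816 at 48 h, 209 at both times and 217 by the difference; subsets hold fewer cells, and other causes were not tested. Leaving out a mouse gave 4790 to 4841, 246 to 399 and 2836 to 3248 for the last 3 counts. The first experiment called 100 genes with DESeq2 and 59 to 245 without 1 mouse. The G0-G1 share difference at 72 h was 1.035 points with cells thinned to 2871 UMIs and shallower cells (2367 in the time course) left out (exact permutation p = 0.7302), 1.335 in the larger pool (exact permutation p = 0.8254), −3.588 in the smaller (exact permutation p = 0.4), −2.793 in B1-8hi cells (exact permutation p = 0.3179) and −2.567 to 0.5712 without 1 mouse. Named genes that changed sign, where the value was called under either setting, were Pxdc1 (−0.05044) and Tnfrsf13b (−0.003625) in the smaller pool, S100a10 (0.1638) and Cd38 (0.5525) in S cells, E2f6 (0.006711) in G2-M cells, and Tyms (0.1036), Pcna (0.3097), Mki67 (0.2974), Ldha (0.2435), Paics (0.2462) and Tcp1 (0.1817) in G0-G1 cells; the cause was not tested. Uncalled genes near 0, such as Foxo1 (−0.020 to 0.044) and Polh (−0.035 to 0.027), also crossed 0 when 1 mouse was left out. No paired analysis was possible because no replicate number ties a treated to an untreated mouse. Genes under about 10 CPM rest on few UMIs per mouse and limit what the test can see.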

Other observations

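Smaller lists held single calls worth a value. Of 25 genes of IL-4, IL-21 and JAK-STAT signaling, 4 fell and 1, Bcl6, rose at 72 h, beside 3.65% and 4.86% of all genes, and the falls were Socs2 (−0.92), a feedback inhibitor of cytokine receptors, Il4i1 (−0.44), Pim1 (−0.43) and Ifngr2 (−0.31). The falls numbered 2 without untreated mouse 5 and 1 without treated mouse 3, and the rises 3 without treated mouse 7. Of 25 genes of T cell contact, 4 fell (beside 3.65%), namely Cd274 (−0.75), which encodes the inhibitory ligand PD-L1 and whose call was lost on leaving out any 1 of 6 mice, Itgb1 (−0.25), Slamf6 (−0.23) and Cd47 (−0.19). Cd59a, which blocks the complement attack complex, rose by 0.67, where Cd55, another complement inhibitor, fell.

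Rnpep (chr1:135190438-135211839) and Cd55 (chr1:130366469-130390926, both GRCm39) lie in the same stretch of chromosome 1. Between 130 and 160 Mb, a window chosen after these values were seen, 15 of 103 tested genes were called at 72 h (14.56%, against 8.51% of all genes), 12 lower and 3 higher. In cells with the B1-8hi pairing alone the log2 fold changes of Rnpep and Cd55 were −1.46 and −1.35. The study describes the reporter-carrying B1-8hi donors as having another CD45 allele than the hosts. Whether strain differences in this stretch or the mix of donor and host cells bear on these values was not tested.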
